A study of Mus musculus with 9 samples.

Results

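Ribosome biogenesis factors are the nucleolar proteins that turn a long precursor of ribosomal RNA (rRNA) into the small and large ribosomal subunits. A list of 49 such genes was followed in mouse leukaemia cells in which the chromatin remodeler Brg1 had been knocked down. All 49 had a probe set of their own, meaning one that the platform annotation gives a single gene symbol, and together they had 53 of the 34760 probe sets measured. Each gene was represented by 1 probe set, among 19937 genes in all. The list held 24 factors of the small subunit, 14 of the large subunit, 7 proteins of small nucleolar ribonucleoproteins (snoRNPs) and 4 general nucleolar proteins.

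The cells were RN2, a mouse acute myeloid leukaemia line that carries the MLL-AF9 fusion and NrasG12D. Brg1 was targeted by 3 hairpin RNAs, Brg1sh_3232, Brg1sh_3364 and Brg1sh_4935, with 2 arrays each. The control group, Rluc, had 3 arrays and expressed a hairpin against Renilla luciferase, a gene that is not part of the mouse genome. Cells of all 4 groups carried a TRMPV hairpin construct and received 1 ug/ml doxycycline for 96 h, which switches the hairpin on, so the control cells were exposed to the drug as well. The cell line label of the Rluc arrays has an additional term, TtTMPV, that the knockdown labels lack, and this difference cannot be told apart from the comparison. All samples come from 1 cell line in culture, and nothing states that the arrays of a group came from separate cultures. A p-value here therefore reflects no more than how much these particular samples differed from each other, and that spread may be technical.

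Ribosome production starts in the nucleolus, where RNA polymerase I transcribes the rRNA precursor. On the nascent transcript the small subunit processome assembles around the U3 snoRNP, while box C/D and box H/ACA snoRNPs methylate the RNA and convert uridines to pseudouridines. Separate sets of factors then build the precursors of the small and the large subunit. Many of these genes are known targets of the transcription factor MYC, which growing leukaemia cells use to keep ribosome output high.

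Smarca4, which encodes Brg1, measured 10.67 and 10.90 with Brg1sh_3232, 10.78 and 10.81 with Brg1sh_3364, and 10.70 and 10.76 with Brg1sh_4935, against 11.79, 11.77 and 11.79 with Rluc, on the log2 scale of the arrays. All knockdown arrays lay below all controls, and the change lay between -1.05 and -0.99 with each hairpin (SE 0.06). The cells expressed their own lineage: the 8 myeloid and progenitor genes checked, among them Ptprc, Kit and Spi1, stood between percentiles 61.5 and 99.9 of the genes on an array. The 12 genes checked for T cells, B cells, erythroid cells and fibroblasts or epithelium stood between percentiles 8.7 and 55.2, and none of them was called in the mean of the hairpins against Rluc.

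The third Rluc array stood apart for the members. It was the highest of the 3 controls for 44 of 49 members and the lowest for 0, whereas it was the highest for 33.3% of all genes. Relative to the mean of the Rluc arrays, the median member lay at -0.32 and -0.33 with Brg1sh_3232, at -0.50 and -0.58 with Brg1sh_3364, and at -0.37 and -0.37 with Brg1sh_4935, against -0.08, -0.06 and 0.14 in the 3 Rluc arrays (log2). The counts of all members, the class medians in the mean of the hairpins and the changes of some single genes are given with and without it. The other changes of single genes include it.

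**Figure D1:**
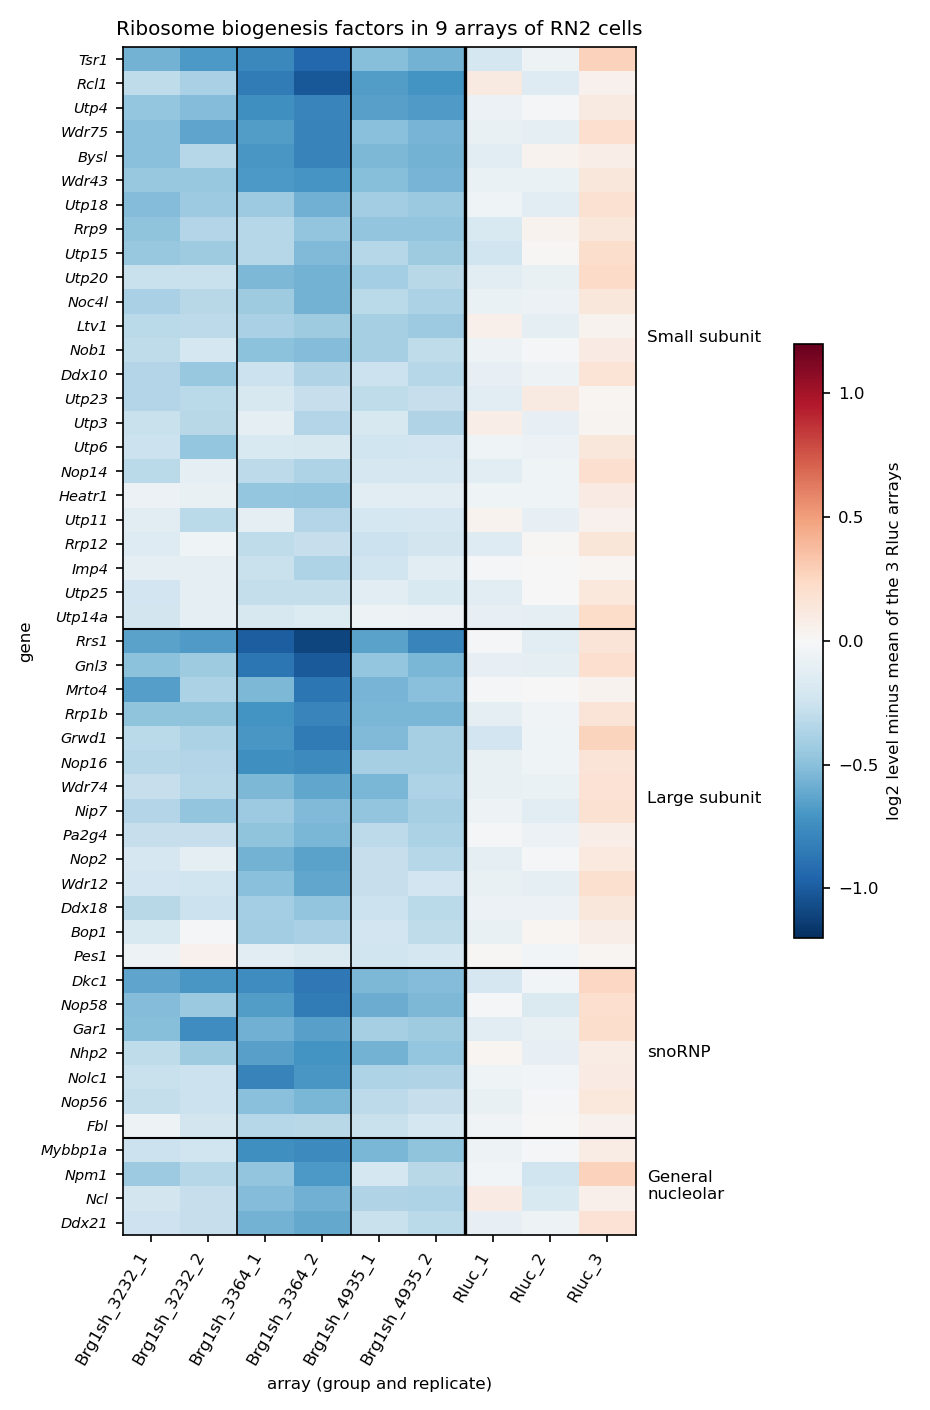
Level of each of the 49 factors (rows, by class and by size of change) in each of the 9 arrays (columns), as log2 level minus the mean of the 3 Rluc arrays; blue is lower and red is higher. The 6 knockdown columns are blue over nearly all rows, the Brg1sh_3364 columns most deeply, and the third Rluc column is the reddest.

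Promoter sequences of the members were searched for the E-box, with the letters CACGTG, the element to which MYC and its partner MAX bind. RefSeq promoter windows (assembly GRCm38.p6, 250 bases before to 50 after the transcription start) were matched by symbol for 41 of the 49 members. CACGTG, which reads the same on both strands, was present in 12 of these 41 (29.3%), in 9.57% of the 15012 measured protein-coding genes with a window, and in 7.15% of all 32851 windows. It occurred in 8 of 20 small subunit factors, 3 of 12 large subunit factors, 1 of 3 general nucleolar proteins and 0 of 6 snoRNP proteins. Other genes of the pathway, from lists that hold none of the 49, had lower shares than the members as a whole. CACGTG was present in 5 of 31 other small subunit factors (16.1%), 6 of 36 other large subunit factors (16.7%) and 0 of 10 other snoRNP genes. Of 44 ribosomal protein genes, 5 (11.4%) had it. The stretches of 30 bases that hold it are shown for all 12 members, from the deepest to the shallowest fall with the hairpins, so that the site and its flanks can be compared. They are written 5′ to 3′ on the strand of the gene, with the E-box in capitals.
Tsr1 (chr11:74898092-74898121, + strand): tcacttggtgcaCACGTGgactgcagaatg
Utp4 (chr8:106893643-106893672, + strand): tgcgcaagcgcgCACGTGgggccggggcgg
Wdr43 (chr17:71616220-71616249, + strand): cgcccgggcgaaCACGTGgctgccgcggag
Grwd1 (chr7:45830740-45830769, - strand): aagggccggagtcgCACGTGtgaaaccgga
Mybbp1a (chr11:72441347-72441376, + strand): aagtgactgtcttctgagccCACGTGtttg
Utp18 (chr11:93885769-93885798, - strand): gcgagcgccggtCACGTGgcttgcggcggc
Utp20 (chr10:88826765-88826794, - strand): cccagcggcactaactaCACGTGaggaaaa
Ltv1 (chr10:13193092-13193121, - strand): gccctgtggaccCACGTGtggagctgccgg
Nop2 (chr6:125131811-125131840, + strand): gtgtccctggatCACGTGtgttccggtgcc
Imp4 (chr1:34439696-34439725, + strand): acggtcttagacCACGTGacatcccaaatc
Utp25 (chr1:193130221-193130250, - strand): tccgccgtaaagccagcgtgccCACGTGcg
Pes1 (chr11:3963965-3963994, + strand): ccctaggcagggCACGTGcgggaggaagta

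In 9 of these 12 members the E-box began after the transcription start: at base 25 in Tsr1, 16 in Utp4, 18 in Wdr43, 35 in Grwd1, 41 in Mybbp1a, 38 in Utp20, 29 in Ltv1, 43 in Utp25 and 3 in Pes1, counted from the first transcribed base. In Utp18, Nop2 and Imp4 it began 20, 60 and 121 bases before the start. That is 75.0% after the start, beside 13.0% of the 1425 E-boxes found in the windows of measured protein-coding genes, where the stretch after the start makes up 50 of the 300 bases. The position was looked at after the sequences had been seen, and 1 window was used per gene (the first listed). The median log2 change with the mean of the hairpins was -0.44 in the 12 members with it (from -0.68 to -0.13) and -0.43 in the 29 without it (from -0.67 to -0.14). Of other promoter letters, GGGCGG or its reverse complement, the core of a GC box, was found in 75.6% of members and 53.7% of measured protein-coding genes. TATAAA, the core of a TATA box, was found on either strand in 4.88% and 13.8%. Windows of members also held more pairs of C followed by G, with a median of 22 against 15 in measured protein-coding genes. Both CACGTG and GGGCGG contain such a pair, and its bearing on their shares was not tested. A match of letters is a description of the sequence, and binding was not measured.

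Against Rluc, the factors fell together with each of the 3 hairpins. Genes were called with limma, a linear model with moderated statistics fitted to all 19937 genes, at a Benjamini-Hochberg adjusted p below 0.05. With Brg1sh_3364, 44 of 49 members were called lower (12.2% of all genes were), with a median log2 change of -0.55. With Brg1sh_4935, 39 of 49 were called lower (12.3% of all genes), with a median of -0.37. With Brg1sh_3232, 33 of 49 were called lower (11.3% of all genes), with a median of -0.34. In the mean of the 3 hairpins, each weighted equally, 48 of 49 were called lower (15.0% of all genes) with a median of -0.40, which ranged from -0.81 for Rrs1 to -0.13 for Pes1. No member was called higher in any of these comparisons, where 9.59%, 13.6%, 9.79% and 13.3% of all genes were (Brg1sh_3232, Brg1sh_3364, Brg1sh_4935 and their mean), and the median change of all genes lay between -0.01 and 0.01. The 3 comparisons share the Rluc arrays, so their calls are not independent of each other. The error of the mean of the hairpins comes from arrays within groups and leaves out differences among the hairpins. With each hairpin's mean as a single replicate, 18 of 49 members were not called lower, among them Nolc1, Heatr1, Ncl, Ddx21 and Npm1. In that fit 7.42% of all genes were called lower. All 49 members were among the 9969 genes at or above the median level. When these genes were fitted alone, 24.5%, 23.8%, 26.4% and 30.1% of them were called lower (Brg1sh_3232, Brg1sh_3364, Brg1sh_4935 and their mean). Among the members, only Utp14a was not called lower in the mean there.

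The decrease was also visible array by array. All arrays of the hairpin lay below all 3 Rluc arrays for 42 members with Brg1sh_3232 (20.8% of all genes), for 49 with Brg1sh_3364 (23.6%) and for 46 with Brg1sh_4935 (22.8%). All 6 knockdown arrays lay below all 3 Rluc arrays for 41 members (12.1% of all genes). The 8 that overlapped were Nop14, Rrp12, Utp14a and Utp25 of the small subunit, Nop2, Bop1 and Pes1 of the large subunit, and Npm1. With each of the 3 hairpins, 31 members were called lower (6.14% of all genes), and 27 without the third Rluc array (5.07%).

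Without the third Rluc array the counts were 30, 43 and 38 of 49 with Brg1sh_3232, Brg1sh_3364 and Brg1sh_4935, and 42 of 49 in their mean. The median changes were then -0.27, -0.47, -0.31 and -0.34, and 9.5%, 10.6%, 11.3% and 12.4% of all genes were called lower. By class, the medians in the mean were -0.30 (small subunit), -0.36 (large subunit), -0.44 (snoRNP) and -0.33 (general nucleolar). The members not called in the mean without this array were Nop14, Rrp12, Utp3, Utp11, Utp14a and Utp25 of the small subunit and Pes1 of the large subunit. With 1 array of the hairpin in place of 2, counts fell further: Brg1sh_3232 gave 18 and 14 calls without its first and its second array, Brg1sh_4935 gave 17 and 21, and Brg1sh_3364 never gave fewer than 36. In these fits the lone array is assumed to vary like the other groups. With each hairpin, fewer of all genes were called lower in them as well. The lower counts are therefore not shown to be particular to the members.

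Measured beside the factors, Myc fell too. It measured 12.05 and 12.23 with Brg1sh_3232, 11.43 and 11.34 with Brg1sh_3364, and 11.86 and 11.86 with Brg1sh_4935, against 12.47, 12.34 and 12.39 with Rluc. The changes were -0.26 ± 0.07 (SE, limma adjusted p = 0.0209), -1.01 ± 0.07 (1.28e-05) and -0.54 ± 0.07 (0.000452). Brg1sh_3364 had the lowest Myc and the deepest median change of the factors. Between Brg1sh_4935 and Brg1sh_3232 the difference in Myc was not called (-0.28 ± 0.07, adjusted p = 0.112). The part of Myc in the changes of the factors was not tested. Of the 8 myeloid and progenitor genes, 4 were called higher in the mean of the hairpins. These were Itgam, an integrin of mature myeloid cells (0.40), Csf2rb (0.34), Ptprc (0.31) and Spi1 (0.26). The 3 called lower were Mpo, the myeloperoxidase of promyelocytes (-0.87), Cebpa (-0.61) and Hoxa9 (-0.40), and Kit was not called (0.02). Rises and falls offset each other in the sum that follows. The log2 levels of the 8 genes summed to between 98.48 and 98.53 with Brg1sh_3232, 97.60 and 97.73 with Brg1sh_3364, and 97.58 and 97.85 with Brg1sh_4935, against 98.16 to 98.77 with Rluc. Their part in the fall of the factors was not tested, and in RNA from whole cultures fewer cells of a type and less RNA per cell cannot be told apart.

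**Figure D2:**
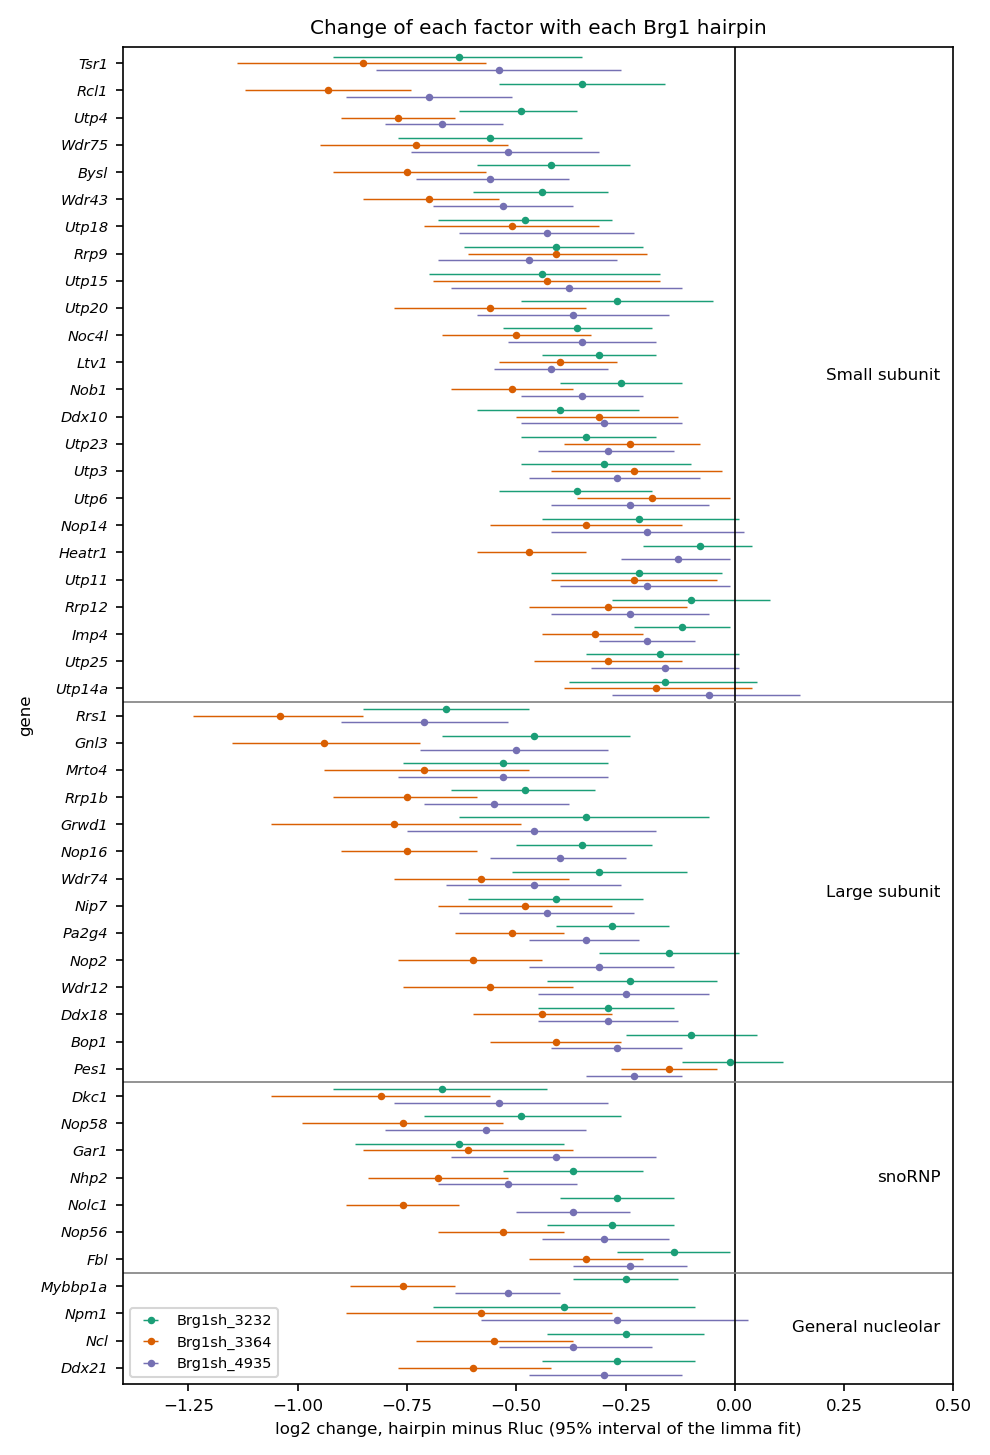
Log2 change of each factor against Rluc with Brg1sh_3232, Brg1sh_3364 and Brg1sh_4935, with the 95% interval of the limma fit; genes run down the page by class. All points lie below 0, from -1.04 (Rrs1 with Brg1sh_3364) to -0.01 (Pes1 with Brg1sh_3232).

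All 24 small subunit factors lay below 0 in the mean of the hairpins and 23 were called lower, with a median of -0.38. Brg1sh_3232 gave 16 calls (median -0.34), Brg1sh_3364 gave 20 (-0.42) and Brg1sh_4935 gave 16 (-0.35). The deepest falls were in Tsr1, a GTPase-like factor on late small subunit precursors, Rcl1, a cyclase-like processome factor, and Utp4, a WD repeat subunit of the processome that is also called cirhin.

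Tsr1 measured 10.37 and 10.25 with Brg1sh_3232, 10.17 and 10.00 with Brg1sh_3364, and 10.43 and 10.37 with Brg1sh_4935, against 10.73, 10.88 and 11.22 with Rluc. Every knockdown array was below every control, and the third Rluc array was by far the highest. Its mean change was -0.68 ± 0.10 (SE, limma adjusted p = 0.000728), which is 62.5% of the Rluc level (95% interval 53.8 to 72.8). Without the third Rluc array it was -0.54 ± 0.06 (adjusted p = 0.000627).

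Rcl1 measured 9.87 and 9.78 with Brg1sh_3232, 9.33 and 9.15 with Brg1sh_3364, and 9.50 and 9.45 with Brg1sh_4935, against 10.28, 10.02 and 10.22 with Rluc. The hairpins formed separate levels, with Brg1sh_3364 lowest and Brg1sh_3232 nearest to the controls, and no group overlapped another. In the mean it changed by -0.66 ± 0.07 (adjusted p = 8.83e-05).

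Utp4 measured 11.81 and 11.75 with Brg1sh_3232, 11.53 and 11.48 with Brg1sh_3364, and 11.62 and 11.59 with Brg1sh_4935, against 12.20, 12.25 and 12.38 with Rluc. The arrays of each group lay close together and the controls far above them, and its adjusted p of 1.35e-05 was the smallest of all members, with a mean change of -0.64 ± 0.05.

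Next in size were Wdr75 (-0.61) and Wdr43 (-0.56), counterparts of the yeast processome subunits Utp17 and Utp5, and Bysl, the late small subunit factor bystin (-0.57). Utp4, Wdr43, Wdr75, Utp15 (-0.42) and Heatr1 belong, in yeast, to a subcomplex that joins the start of the rRNA precursor. The first 4 were called lower with each hairpin. Heatr1 was called with Brg1sh_3364 alone (limma adjusted p = 0.377 with Brg1sh_3232 and 0.134 with Brg1sh_4935). Without the third Rluc array Utp15 was no longer called with Brg1sh_4935 (-0.28, adjusted p = 0.0842), and Rcl1 no longer with Brg1sh_3232 (-0.33, adjusted p = 0.0525). The proteins on and around the U3 snoRNA were mixed in size. Rrp9, its WD repeat protein, changed by -0.43 and Utp18 by -0.48, while Imp4 changed by -0.21 and Utp11 by -0.22. The scaffold proteins made of HEAT repeats, Utp20 (-0.40), Heatr1 (-0.23) and Rrp12 (-0.21), spread over a similar range. Of the pair Nop14 and Noc4l, which bind each other, Noc4l changed by -0.40 and Nop14 by -0.25.

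The factors that act late, in or on the way to the cytoplasm, fell as well. Nob1, the endonuclease that cuts the mature end of the small subunit rRNA, changed by -0.37, and Ltv1, which helps export, by -0.38. Among the remaining members of the class, which are not late factors, Ddx10, an RNA helicase, changed by -0.34. Utp23 changed by -0.29, Utp3 by -0.27, Utp6 by -0.26 and Utp25 by -0.21. For Ddx10, Utp23, Utp3 and Utp6 the change was at least as deep with Brg1sh_3232 (-0.40, -0.34, -0.30 and -0.36) as with Brg1sh_3364 (-0.31, -0.24, -0.23 and -0.19), unlike in most of the class, but none of these differences passed the test.

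Utp14a, which works with the helicase DHX37 in taking the processome apart, was the one member not called in the mean of the hairpins. It measured 9.81 and 9.92 with Brg1sh_3232, 9.84 and 9.87 with Brg1sh_3364, and 9.97 and 9.96 with Brg1sh_4935, against 9.93, 9.91 and 10.25 with Rluc. The third Rluc array was clearly above all knockdown arrays. The other controls lay below both Brg1sh_4935 arrays and above both Brg1sh_3364 arrays, and those of Brg1sh_3232 overlapped them. Over the 3 hairpins it changed by -0.14 ± 0.07 (95% interval -0.30 to 0.03, adjusted p = 0.231), and -0.03 ± 0.04 without that array.

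Of the 14 large subunit factors, all 14 fell in the mean of the hairpins, with a median of -0.45. With Brg1sh_3232 9 were called lower, with Brg1sh_3364 13 and with Brg1sh_4935 13, and the medians were -0.33, -0.59 and -0.42. Rrs1, which in yeast loads the 5S ribonucleoprotein into the precursor particle, had the lowest value of all members.

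Rrs1 measured 8.81 and 8.77 with Brg1sh_3232, 8.46 and 8.35 with Brg1sh_3364, and 8.81 and 8.66 with Brg1sh_4935, against 9.43, 9.31 and 9.60 with Rluc. The lowest control was 0.50 above the highest knockdown array. Averaged over hairpins, the change was -0.81 ± 0.07 (adjusted p = 2.96e-05), or 57.2% of the Rluc level (51.6 to 63.4), and with Brg1sh_3364 the level was 48.5% (42.4 to 55.4).

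Gnl3, the nucleolar GTPase nucleostemin, measured 10.44 and 10.50 with Brg1sh_3232, 10.06 and 9.92 with Brg1sh_3364, and 10.47 and 10.38 with Brg1sh_4935, against 10.83, 10.82 and 11.13 with Rluc. Both Brg1sh_3364 arrays stood well under the other knockdown arrays, which in turn stood under all controls. On average it changed by -0.63 ± 0.07 (adjusted p = 0.00022).

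Rrp1b, a nucleolar protein of the large subunit precursors, measured 10.43 and 10.43 with Brg1sh_3232, 10.19 and 10.12 with Brg1sh_3364, and 10.36 and 10.36 with Brg1sh_4935, against 10.80, 10.87 and 11.06 with Rluc. The replicate arrays of each hairpin were nearly equal and all were below the controls. The mean change was -0.59 ± 0.06 (adjusted p = 6.92e-05).

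Mrto4, which holds the place of the stalk protein P0 on the precursor, changed by -0.59, and Grwd1, a chaperone of a ribosomal protein in yeast, by -0.53. Nop16 (-0.50), Wdr74 (-0.45) and Nip7 (-0.44), all factors of early large subunit precursors, followed. Pa2g4, a protein that binds the large subunit, changed by -0.38, Nop2, an rRNA methyltransferase, by -0.35 and Ddx18, an RNA helicase, by -0.34.

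Pes1, Bop1 and Wdr12 form the PeBoW complex, which is needed to process the large subunit rRNAs. Their changes were -0.13, -0.26 and -0.35, and so 2 of the 3 subunits, Pes1 and Bop1, had the smallest changes of the class. Pes1, pescadillo, measured 11.11 and 11.22 with Brg1sh_3232, 11.04 and 11.00 with Brg1sh_3364, and 10.93 and 10.96 with Brg1sh_4935, against 11.18, 11.14 and 11.19 with Rluc. Its Brg1sh_3232 arrays lay among or around the controls, while those of Brg1sh_3364 and Brg1sh_4935 were below them. The change was -0.01 ± 0.05 with Brg1sh_3232 (adjusted p = 0.965), -0.15 ± 0.05 with Brg1sh_3364 (0.0512) and -0.23 ± 0.05 with Brg1sh_4935 (0.0093). In the mean it was called (adjusted p = 0.0328), but not without the third Rluc array (0.103).

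The snoRNP proteins had the deepest median of the 4 classes, -0.52, and all 7 were called lower in the mean. All 7 were called with Brg1sh_3364 (median -0.68) and Brg1sh_4935 (-0.41) and 6 with Brg1sh_3232 (-0.37), and for all 7 the 6 knockdown arrays lay below the 3 controls. The differences between classes were not tested.

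Among the box H/ACA proteins, Dkc1, the pseudouridine synthase dyskerin, measured 10.85 and 10.78 with Brg1sh_3232, 10.73 and 10.62 with Brg1sh_3364, and 10.94 and 10.96 with Brg1sh_4935, against 11.28, 11.45 and 11.73 with Rluc. The controls were spread widely, with the third the highest, but did not overlap the knockdown arrays. Its mean change was -0.67 ± 0.08 (adjusted p = 0.000353), and -0.55 ± 0.06 without the third Rluc array.

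Gar1, a core protein of the same particles, measured 11.52 and 11.28 with Brg1sh_3232, 11.45 and 11.38 with Brg1sh_3364, and 11.63 and 11.60 with Brg1sh_4935, against 11.90, 11.94 and 12.24 with Rluc. The 3 hairpins were close here, and the arrays of Brg1sh_3232 lay on both sides of those of Brg1sh_3364. In the mean it changed by -0.55 ± 0.08 (adjusted p = 0.000906). Nhp2, the other H/ACA core protein on the list, changed by -0.52.

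Among the box C/D proteins, Nop58 measured 10.41 and 10.48 with Brg1sh_3232, 10.26 and 10.09 with Brg1sh_3364, and 10.33 and 10.39 with Brg1sh_4935, against 10.91, 10.76 and 11.13 with Rluc. The knockdown arrays all lay below the controls, with a mean change of -0.60 ± 0.08 (adjusted p = 0.000407). Its partner Nop56 changed by -0.37.

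Fbl, the methyltransferase fibrillarin, had the smallest change of the class. It measured 11.85 and 11.69 with Brg1sh_3232, 11.57 and 11.58 with Brg1sh_3364, and 11.64 and 11.70 with Brg1sh_4935, against 11.87, 11.91 and 11.96 with Rluc. The first Brg1sh_3232 array came within 0.02 of the lowest control. The change was -0.24 ± 0.04 (adjusted p = 0.00303), and the second probe set of Fbl gave -0.38.

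Nolc1, a chaperone of snoRNPs also known as Nopp140, measured 10.78 and 10.79 with Brg1sh_3232, 10.25 and 10.35 with Brg1sh_3364, and 10.68 and 10.69 with Brg1sh_4935, against 11.00, 11.02 and 11.15 with Rluc. Its Brg1sh_3364 arrays stood far below those of the other hairpins. Over the 3 hairpins it changed by -0.46 ± 0.04 (limma adjusted p = 7.37e-05), an error that leaves out the differences among hairpins. With each hairpin's mean as a single replicate it was not called.

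All 4 general nucleolar proteins fell in the mean, with a median of -0.40. Mybbp1a, which binds the transcription factor Myb and acts in rRNA synthesis, measured 10.70 and 10.72 with Brg1sh_3232, 10.22 and 10.20 with Brg1sh_3364, and 10.41 and 10.48 with Brg1sh_4935, against 10.90, 10.94 and 11.05 with Rluc. The 4 groups did not overlap, and each hairpin held its own level below the controls. Averaged over hairpins, the change was -0.51 ± 0.04 (adjusted p = 2.99e-05).

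Npm1, nucleophosmin, measured 11.85 and 11.95 with Brg1sh_3232, 11.82 and 11.60 with Brg1sh_3364, and 12.08 and 11.96 with Brg1sh_4935, against 12.26, 12.05 and 12.57 with Rluc. The controls spread over 0.52, and 1 Brg1sh_4935 array lay above the lowest of them. On average it changed by -0.42 ± 0.10 (limma adjusted p = 0.0144), called with Brg1sh_3364 alone (-0.58, adjusted p = 0.011) and not with Brg1sh_3232 (0.0707) or Brg1sh_4935 (0.212). Without the third Rluc array the mean change was -0.28 ± 0.08 (adjusted p = 0.0378).

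Ncl, nucleolin, measured 12.26 and 12.20 with Brg1sh_3232, 11.96 and 11.90 with Brg1sh_3364, and 12.12 and 12.11 with Brg1sh_4935, against 12.58, 12.30 and 12.54 with Rluc. Here the second Rluc array was the low one, and it still exceeded every knockdown array. The mean change was -0.39 ± 0.06 (adjusted p = 0.00129).

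Ddx21, an RNA helicase of the nucleolus, measured 11.39 and 11.36 with Brg1sh_3232, 11.07 and 11.03 with Brg1sh_3364, and 11.37 and 11.32 with Brg1sh_4935, against 11.54, 11.58 and 11.81 with Rluc. The Brg1sh_3232 and Brg1sh_4935 arrays shared a level and the Brg1sh_3364 arrays lay under it. Its mean change was -0.39 ± 0.06 (adjusted p = 0.00111).

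**Figure D3:**
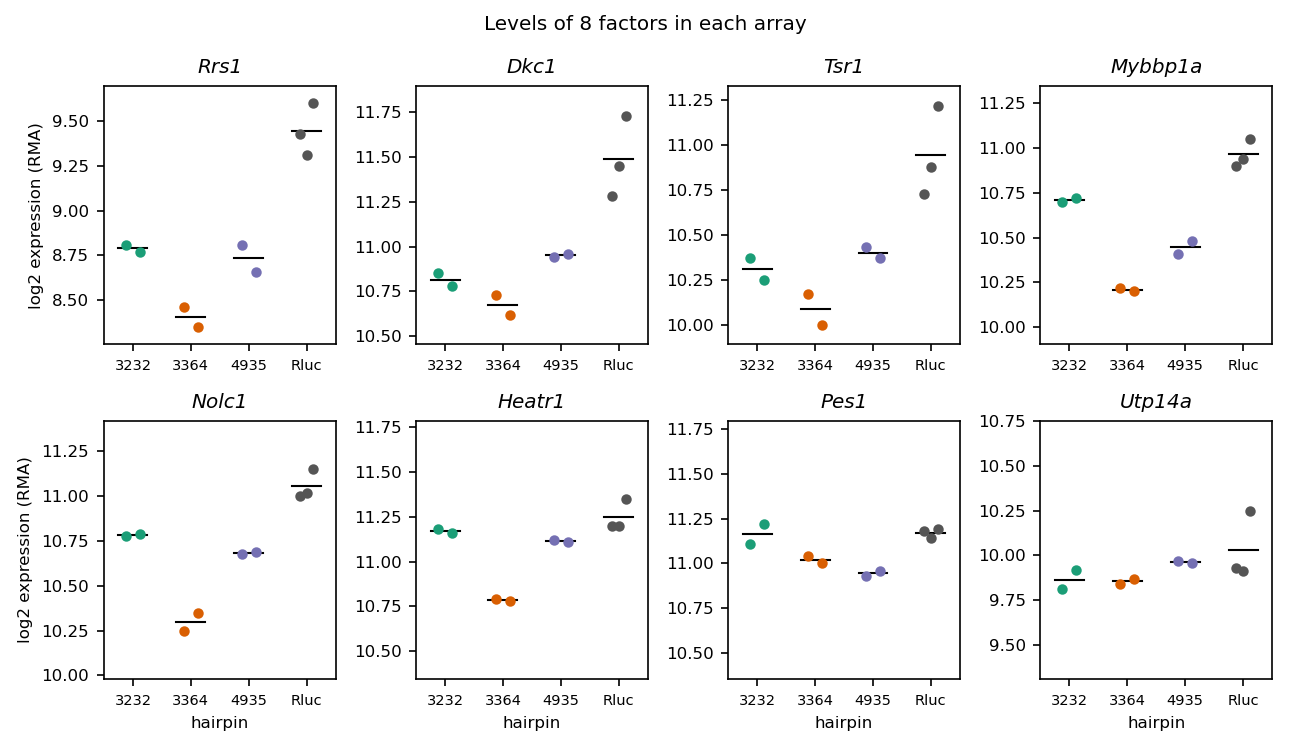
Log2 expression of 8 factors in each array, with 1 point per array and a line at the mean of the group, for the hairpins Brg1sh_3232, Brg1sh_3364 and Brg1sh_4935 (2 arrays each) and Rluc (3 arrays); all panels span the same range. Rrs1, Dkc1 and Tsr1 fall with all hairpins, Mybbp1a, Nolc1 and Heatr1 fall furthest with Brg1sh_3364, and Pes1 and Utp14a change least (-0.13 and -0.14 in the mean).

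Wdr12, Mrto4, Ddx18 and Fbl had a second probe set each, and in all 4 genes both probe sets were lower in the mean of the hairpins. Wdr12 gave -0.35 in the probe set used and -0.43 in the other, Mrto4 -0.59 and -0.50, Ddx18 -0.34 and -0.37, and Fbl -0.24 and -0.38. In a fit over every probe set, the calls with Brg1sh_3232 differed between the probe sets of 3 genes, with an adjusted p of 0.0969 for Wdr12 in the probe set used and 0.0355 in the other, 0.0191 and 0.119 for Ddx18, and 0.124 and 0.0276 for Fbl. The positions of the probe sets were not used here, and for Wdr12, Mrto4 and Ddx18 the one used may lie in a near-identical copy of the gene, so their values are uncertain to that extent.

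The hairpins were then set against each other, which does not involve the level of the controls. The lowest mean level among the hairpins was that of Brg1sh_3364 for 40 of 49 members (38.9% of all genes), of Brg1sh_3232 for 6 (30.6%) and of Brg1sh_4935 for 3 (30.5%). Smarca4 itself did not follow this order: Brg1sh_3364 against Brg1sh_3232 gave 0.01 ± 0.07 (adjusted p = 0.973). Myc was lower with Brg1sh_3364, with a difference of -0.75 ± 0.07 against Brg1sh_3232 (adjusted p = 0.000605) and of -0.47 ± 0.07 against Brg1sh_4935 (0.00501).

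Against Brg1sh_3232, Brg1sh_3364 had 15 of 49 members called lower (3.84% of all genes) and 0 higher (5.81%). They were Heatr1, Imp4, Rcl1, Bysl and Utp4 of the small subunit, Nop16, Nop2, Bop1, Gnl3, Pa2g4 and Rrs1 of the large subunit, the snoRNP proteins Nhp2 and Nolc1, and Mybbp1a and Ddx21. The difference was deepest in Rcl1 (-0.58 ± 0.09, adjusted p = 0.00556), Mybbp1a (-0.50 ± 0.06, 0.00142) and Nolc1 (-0.49 ± 0.06, 0.0023). Against Brg1sh_4935, Brg1sh_3364 had 5 members called lower (3.1% of all genes) and 0 higher (4.51%). These were Heatr1, Nop16, Gnl3, Nolc1 and Mybbp1a, all of which were also among the 15. Brg1sh_4935 against Brg1sh_3232 gave 0 calls by limma (0.411% of all genes were called lower and 0.612% higher), with 5 members lower at an unadjusted p below 0.05, where 7.67% of all genes were. Without the third Rluc array, whose spread enters the error shared by all groups, these 3 counts were 22, 13 and 1, and 4.49%, 3.75% and 0.953% of all genes were called lower. Imp4 was then no longer among the members called against Brg1sh_3232 (adjusted p = 0.0555).

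Heatr1, the processome scaffold that corresponds to yeast Utp10, was called in both comparisons with Brg1sh_3364. It measured 11.18 and 11.16 with Brg1sh_3232, 10.79 and 10.78 with Brg1sh_3364, and 11.12 and 11.11 with Brg1sh_4935, against 11.20, 11.20 and 11.35 with Rluc. Only Brg1sh_3364 stood clearly below the controls, and the replicate arrays of each hairpin agreed within 0.02. The change against Rluc was -0.47 ± 0.06 with Brg1sh_3364 (adjusted p = 0.000329), -0.08 ± 0.06 with Brg1sh_3232 (0.377) and -0.13 ± 0.06 with Brg1sh_4935 (0.134). Brg1sh_3364 was also lower than the other hairpins, with a difference of -0.38 ± 0.06 against Brg1sh_3232 (adjusted p = 0.0056) and of -0.33 ± 0.06 against Brg1sh_4935 (0.0118). By contrast Gar1 (0.02, 95% interval -0.24 to 0.28) and Dkc1 (-0.13, -0.41 to 0.14) showed no called difference between Brg1sh_3364 and Brg1sh_3232, and these intervals leave room for a difference either way.

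**Figure D4:**
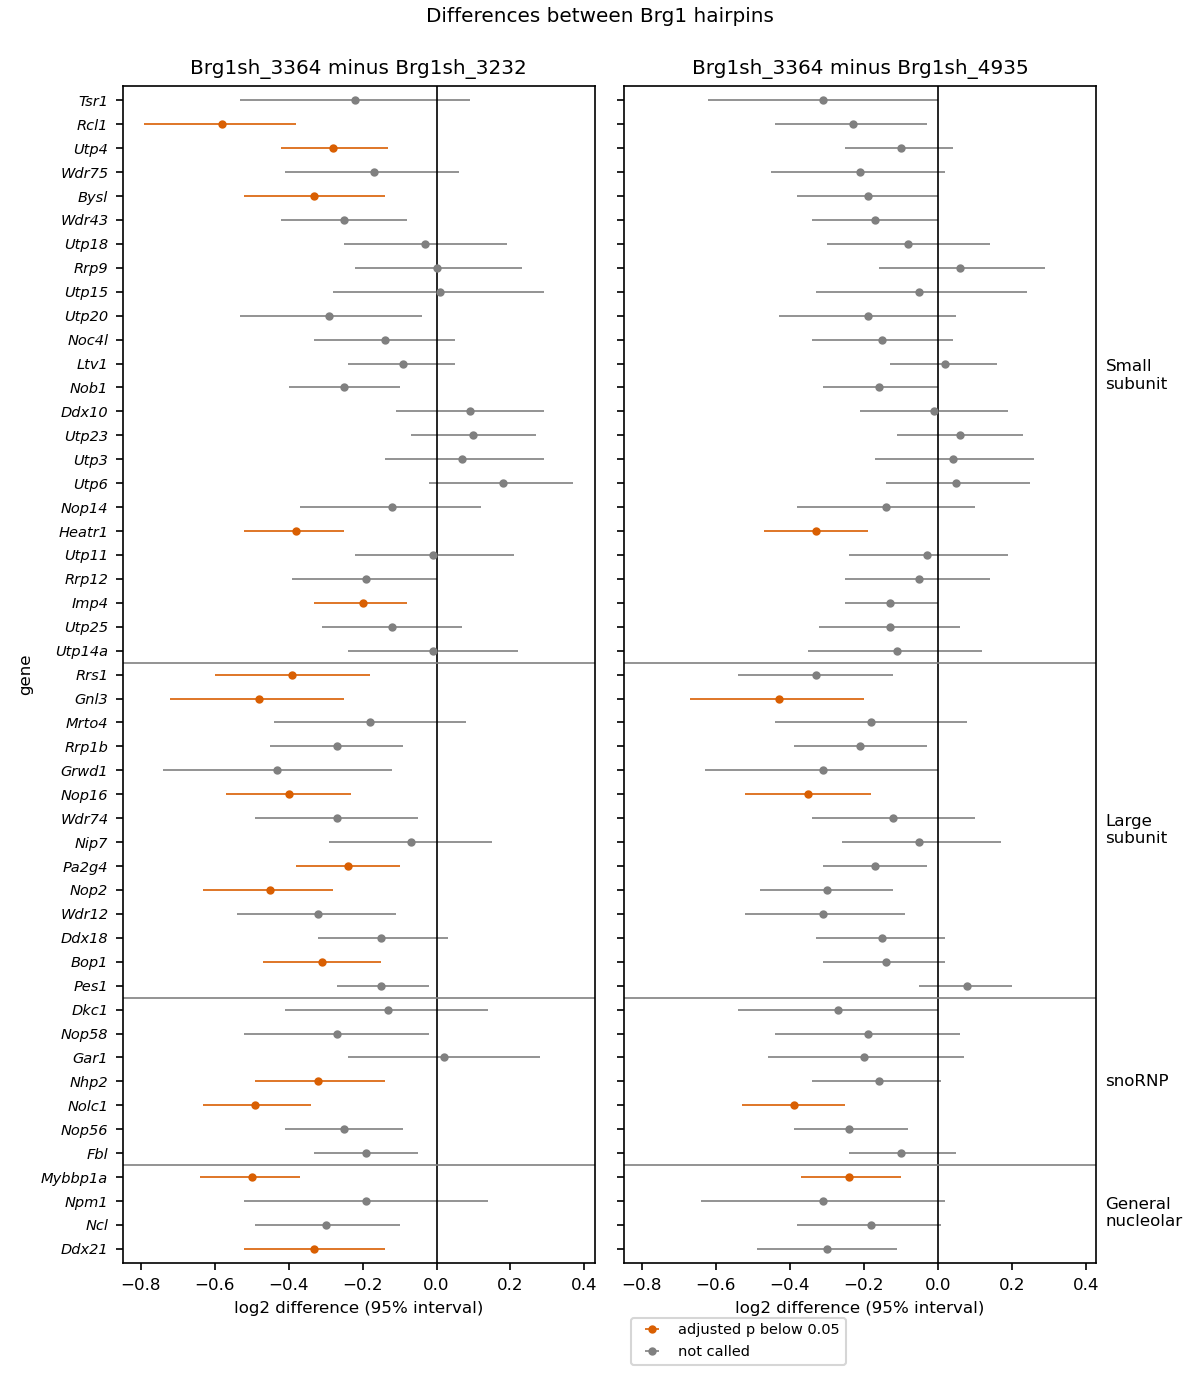
Log2 difference of each factor between Brg1sh_3364 and Brg1sh_3232 (left) and between Brg1sh_3364 and Brg1sh_4935 (right), with 95% intervals; orange marks an adjusted p below 0.05. All called members, 15 on the left and 5 on the right, are lower with Brg1sh_3364.

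Other genes of the pathway, from lists that hold none of the 49, were followed in the same comparison. Of 93 further biogenesis factors on the array, 67 were called lower and 1 higher in the mean of the hairpins (15.0% and 13.3% of all genes), with a median of -0.27. As listed here, they comprised 37 small subunit factors (23 lower, median -0.23), 43 large subunit factors (33 lower, 1 higher, median -0.31) and 13 snoRNP genes (11 lower, median -0.30). Wdr18, Nol9 and Rrp8, listed under the small subunit, and Nop9, listed under the large, may belong to the other subunit. The counts by class are therefore approximate. Among the 93, Tma16, a large subunit factor, changed by -1.01, more than any of the 49, and Rrp15 by -0.71. Mphosph10 (-0.63) and Pno1 (-0.58) led the small subunit, and Naf1 (-0.55) and Shq1 (-0.51), both needed to assemble H/ACA particles, led the snoRNP genes. Nop53, a large subunit factor, was the one called higher (0.15 ± 0.04, adjusted p = 0.0123). When the third Rluc array was left out, 55 of the 93 were called lower (12.4% of all genes) and 0 higher. Fcf1 (0.16) and Pih1d1 (-0.01) had the highest values of their lists and were not called. Of the 12 genes of RNA polymerase I and its factors, 9 were called lower (15.0% of all genes), with a median of -0.26. They were led by the polymerase subunits Polr1e (-0.64) and Polr1b (-0.56), while Ubtf, the upstream binding factor of the polymerase, changed by 0.09 and was not called.

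The ribosomal proteins are the parts that the factors put into place. Of 55 with a probe set of their own, 13 (23.6%) were called lower in the mean, against 15.0% of all genes, with a median of -0.08. Of the 9969 brighter genes, fitted alone, 30.1% were called lower in the mean. How many of the 55 are among these is not given here, so 23.6% is not shown to be a raised share. With Brg1sh_3232, 1 ribosomal protein was called lower (1.82%, against 11.3% of all genes) and 2 higher (median 0.05). With Brg1sh_3364 27 were lower (49.1%, against 12.2%, median -0.21), and with Brg1sh_4935 5 (9.09%, against 12.3%, median -0.09). Leaving out the third Rluc array gave 7 called lower in the mean (12.7%, against 12.4% of all genes), 0 in either direction with Brg1sh_3232, 27 with Brg1sh_3364 and 5 with Brg1sh_4935. Rpl12 (-0.55, adjusted p = 0.00667) had the lowest value among those called, and Rpl7a (-0.45) and Rpl24 (0.15) were not called. Brg1sh_3364 against Brg1sh_3232 gave 22 of 55 lower (3.84% of all genes were). Among the controls the first Rluc array, not the third, was the highest for 46 of the 55.

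**Figure D5:**
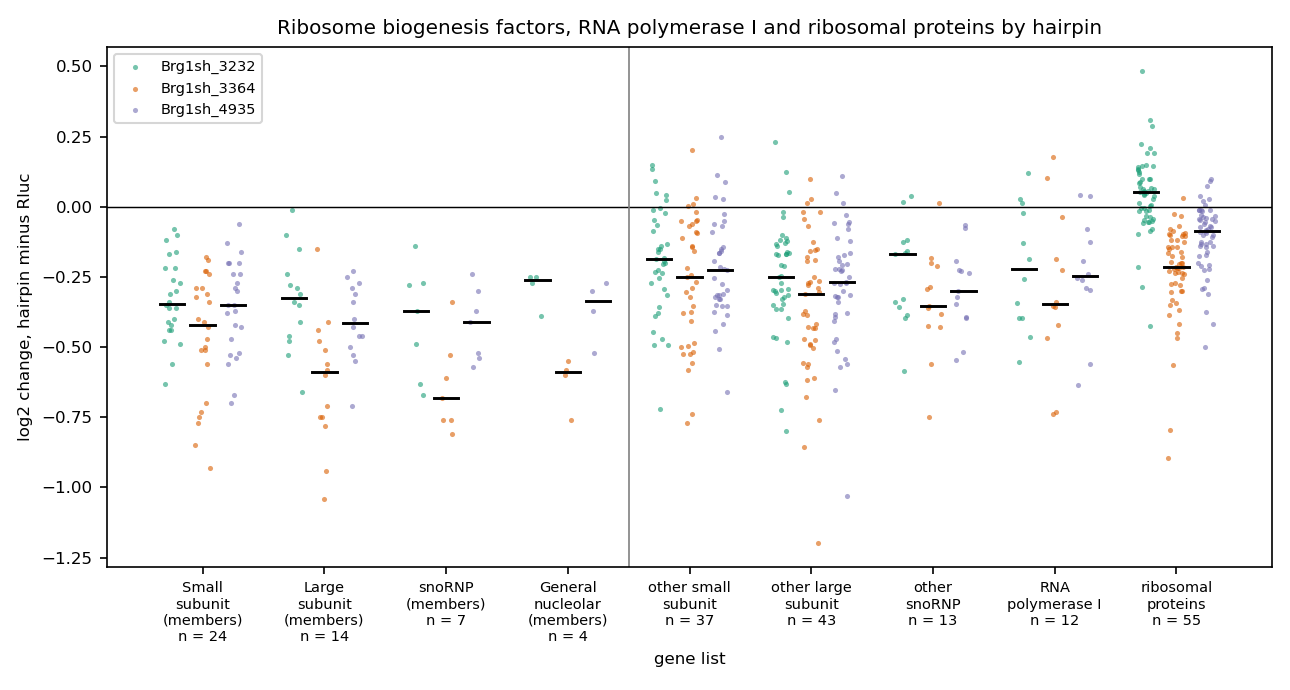
Log2 change against Rluc of the genes of each list (1 point per gene, black bars at the medians) with Brg1sh_3232, Brg1sh_3364 and Brg1sh_4935; the 4 classes of the 49 factors stand left of the vertical line and other genes of the pathway right of it. The medians of all factor lists lie below 0 with each hairpin, while the ribosomal proteins lie at 0.05, -0.21 and -0.09.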

How the data were processed

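RNA was measured on 9 arrays. The deposited table holds log2 expression of each probe set in each array, computed by RMA as the authors state in the submitters' processing notes. RMA removes background, gives all arrays the same distribution by quantiles and combines the probes of a set, so a level is relative to all RNA on the array. Neither the RMA version nor the array's genome build is named in the sources used here. Symbols came from the platform annotation, which gave 1 symbol to 21640 probe sets, several to 1321 and none to 11799. A gene with several probe sets was represented by the brightest, and no filter on dim genes was used.

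A model of 4 group means was fitted over the 9 arrays (limma 3.58.1, R 4.3.3, with 5 residual and 3.85 prior degrees of freedom). Tests were two-sided and adjusted by Benjamini-Hochberg over 19937 genes. Errors are standard errors (SE) of the fit. The number of arrays limits the precision. Promoter windows were those of RefSeq, GRCm38.p6. The closing section gives the effect of other normalizations, filters, moderation, thresholds and of leaving out arrays or hairpins.

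The members, lists and tests were chosen with earlier results of these data known. Per-array values are given for the 3 lowest members and the highest of each class, the 4 with the smallest p of the F test among the hairpins, and any not called in the mean. In other lists the 2 lowest genes and the highest are named. Of the promoters, the rule foresaw up to 4 whole windows. The sites of all 12 members were shown instead, as short stretches, after they had been seen. Same-numbered arrays of Brg1sh_3232 and Rluc deviated together (correlations 0.19 and 0.249), but those of the other pairs of groups did not (-0.072 to 0.028), so the numbers were not used as pairs.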

Additional observations from a re-analysis of the deposited data

Results flagged for a closer look

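A moderated F test among the 3 hairpins (limma), which leaves the controls out of the comparison, called 8 of 49 members at an adjusted p below 0.05 (10.5% of all genes). At an unadjusted p below 0.05 it gave 24 of 49, and 5146 of all 19937 genes. A member without a call is not shown to respond alike to the hairpins: 7 of the 15 called between Brg1sh_3364 and Brg1sh_3232 are not among the 8. Adjusted p was 0.00306 for Mybbp1a, 0.00381 for Nolc1, 0.00816 for Heatr1, 0.0115 for Rcl1, 0.0164 for Nop2, 0.0172 for Nop16, 0.0294 for Gnl3 and 0.049 for Rrs1. All 8 had their lowest level with Brg1sh_3364. Nop2, for example, changed against Rluc by -0.60 with Brg1sh_3364, -0.31 with Brg1sh_4935 and -0.15 with Brg1sh_3232, and Nop16 by -0.75, -0.40 and -0.35. Myc, at -1.01, -0.54 and -0.26, had the same order of values, and its part in the differences was not tested. Without the third Rluc array the F test called 18 members, and the share of all genes in that fit is not given here.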

How the results depend on the processing

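With 2 or 3 arrays per group, calls of single hairpins depend on how the spread is estimated. In the mean of the hairpins, no member lay above 0 under any of the settings tried. The number called lower was 42 to 47 of 49 without 1 array. With the whole hairpin Brg1sh_3364 left out, 9 of 49 members were not called lower. These were Bop1, Heatr1, Nop14, Npm1, Pes1, Rrp12, Utp14a, Utp25 and Wdr12. Leaving out Brg1sh_3232 or Brg1sh_4935 left 3 and 6 members not called lower. In each of these fits fewer of all genes were called lower too. Taking each hairpin's mean as a single replicate gave 31 (15 small subunit, 9 large subunit, 1 general nucleolar), where 7.42% of all genes were called lower. Without 1 array, single hairpins gave 14 to 35 (Brg1sh_3232), 36 to 44 (Brg1sh_3364) and 17 to 41 (Brg1sh_4935). By class, in the same hairpin order, the small subunit gave 9 to 17, 13 to 20 and 8 to 18, the large subunit 3 to 10, 13 to 14 and 5 to 13, the snoRNP proteins 2 to 6, 7 and 3 to 7, and the general nucleolar proteins 0 to 4, 3 to 4 and 1 to 3. In the mean the classes gave 18 to 22, 13 to 14, 7 and 4. Between hairpins, lower counts were 4 to 22 (Brg1sh_3364 against Brg1sh_3232), 0 to 13 (Brg1sh_3364 against Brg1sh_4935) and 0 to 1 (Brg1sh_4935 against Brg1sh_3232), higher counts stayed at 0, and the F test gave 2 to 18. The wide ranges come with fits in which 1 hairpin has a single array, whose spread is taken from the other groups, and, at the upper end of the counts between hairpins, with the third Rluc array left out. Fitting only the groups compared, which leaves fewer arrays, gave 18 for Brg1sh_3232 (9 small subunit, 4 large subunit, 1 general nucleolar and the rest snoRNP proteins). It gave 1 general nucleolar protein for Brg1sh_4935 and 6 members for Brg1sh_3364 against Brg1sh_3232. Of all genes, 6.48%, 9.73% and 1.17% were called lower in these 3 fits. At an adjusted p below 0.01, 10 small subunit factors were called with Brg1sh_3232 and 10 with Brg1sh_4935, 1 general nucleolar protein with Brg1sh_3232, 5 members in Brg1sh_3364 against Brg1sh_3232, 1 against Brg1sh_4935, and 3 by the F test. Centring arrays on their medians, or leaving out dim genes, gave 4 general nucleolar proteins for Brg1sh_3232, where 13.6% and 24.5% of the genes fitted were called lower. Leaving out dim genes also gave 1 (Brg1sh_4935 against Brg1sh_3232), 8 (Brg1sh_3364 against Brg1sh_4935) and 17 (F test). Of the 9969 genes kept, 1.83% and 5.89% were called lower between these hairpins, and the share for the F test is not given here. The F test called 14 after further quantile normalization, 14 with trend and robust moderation, and 14 with array weights. Array weights also gave 10 for Brg1sh_3364 against Brg1sh_4935 (4.67% of all genes). With the replicate number as a block these counts were 17 and 10, with 1 for Brg1sh_4935 against Brg1sh_3232. The mean of the hairpins then gave 44 of 49 (12.4% of all genes). The samples share only a number. Where a count in this section has no share of all genes beside it, calls over all genes may have moved too. Causes beyond these constructions were not tested. Of the counts recomputed, 453 stayed within 1.5 times and 74 did not. Of 396 log2 changes of named members, 376 kept their call and 20 lost it with the same sign.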
